A study of Mus musculus with 2 samples.

Results

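The 4 loci described here belong to enzymes of the late steps of cholesterol synthesis: Sqle, Cyp51, Msmo1 and Sc5d. SREBP-2 is a membrane-bound transcription factor that is cut and released to the nucleus when cell sterols are low, and there it activates genes for making and taking up cholesterol. In the liver, a main site of cholesterol synthesis, these genes are among its textbook targets. Sqle makes squalene epoxide, from which the first sterol is closed. Cyp51 (a cytochrome P450) and Msmo1 (a monooxygenase, also called Sc4mol) remove methyl groups from that sterol, and Sc5d adds a double bond near the end of the pathway.

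SREBP-2 occupancy had been measured by chromatin immunoprecipitation and sequencing (ChIP-seq) in livers of C57BL/6 mice, with 1 library made with an antibody to the nuclear, amino-terminal region of SREBP-2 and 1 control file made with non-specific immunoglobulin (IgG). Both groups share strain and tissue, and the labels used here give no diet, drug, age or sex, nor how many livers were pooled. With 1 sample per antibody no spread between animals is known, and the intervals below cover counting error in these libraries only.

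The loci were found as deposited peaks whose midpoint lies within 20 kb of 1 promoter position per gene: 59146600 on chromosome 15 for Sqle, 4104750 on chromosome 5 for Cyp51, 67212600 on chromosome 8 for Msmo1 and 42072000 on chromosome 9 for Sc5d. The peaks that met this rule numbered 5 of 1800. Sqle, Cyp51 and Msmo1 had 1 each and Sc5d had 2, which are called the Sc5d promoter peak and the Sc5d upstream peak. The genes were selected on their high SREBP-2 read counts and ratios in these same libraries, so these values are a description and support nothing further. Coordinates fit the mouse build mm9 (NCBI37). No gene annotation of that build was used here, so the gene names rest on the stated positions. A RefSeq gene table of another build, GRCm38.p6, places all 4 genes on the same chromosomes.

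The Sc5d upstream peak lay 16.1 kb from its promoter position, the farthest of the members. The nearest deposited peak beyond the 20 kb was 59.2 kb from the Sqle position, with 19 SREBP-2 and 15 IgG reads (ratio 3.66). For the other genes the next peak was 208 kb (Sc5d), 561 kb (Cyp51) and 2679 kb (Msmo1) away.

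The promoter sequences are shown first, because a transcription factor's reads gather around the bases it binds. SREBP-2 binds sterol regulatory elements, and is known to act there with NF-Y, which binds CCAAT, and Sp1, which binds GGGCGG. Promoters were matched by gene symbol in a RefSeq promoter table of GRCm38.p6 for Cyp51, Msmo1 and Sc5d, and not for Sqle. The 250 bases before each annotated start are printed 5′ to 3′ on the strand of the gene, which is the minus strand in all 3, and positions are counted back from the start at -1. They come from chr5:4104698-4104947 (Cyp51), chr8:64733579-64733828 (Msmo1) and chr9:42264301-42264550 (Sc5d) of GRCm38.p6. These are not the coordinates of the peaks and cannot be laid over them, so the printed bases may lie partly or wholly outside the peaks. The midpoint of the Sc5d promoter peak was 0.4215 kb from its stated promoter position, against 0.0835 kb (Msmo1) and 0.1025 kb (Cyp51). Capitals mark CCAAT on either strand, matches to the SREBP motif TCACNCCAC with 1 mismatch, matches to TCACNTCAG, and the E-box CACGTG.
Cyp51: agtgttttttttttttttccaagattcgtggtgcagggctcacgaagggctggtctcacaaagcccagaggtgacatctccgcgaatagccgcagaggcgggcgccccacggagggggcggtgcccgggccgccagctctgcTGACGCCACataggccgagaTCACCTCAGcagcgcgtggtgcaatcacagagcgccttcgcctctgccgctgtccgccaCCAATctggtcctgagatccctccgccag
Msmo1: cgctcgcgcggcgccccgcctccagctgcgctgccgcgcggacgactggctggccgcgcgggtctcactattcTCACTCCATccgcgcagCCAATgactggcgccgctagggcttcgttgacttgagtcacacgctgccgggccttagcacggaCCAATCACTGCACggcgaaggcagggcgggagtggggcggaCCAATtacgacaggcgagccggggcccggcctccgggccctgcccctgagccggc
Sc5d: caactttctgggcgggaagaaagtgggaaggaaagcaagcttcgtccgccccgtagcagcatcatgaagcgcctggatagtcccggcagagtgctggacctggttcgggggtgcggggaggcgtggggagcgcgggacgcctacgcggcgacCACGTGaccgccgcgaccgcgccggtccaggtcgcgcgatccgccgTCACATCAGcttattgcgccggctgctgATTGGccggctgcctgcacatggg

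Over the whole 300-base windows of the table (250 before and 50 after the start), searched on both strands, an exact TCACNCCAC was in 0 of these 3 promoters and in 1.24% of all 32851. With 1 mismatch allowed outside the N it was in the Cyp51 promoter, at -108 to -100 (TGACGCCAC), and in the Msmo1 promoter, at -177 to -169 (TCACTCCAT) and -92 to -84 (TCACTGCAC), but so was it in 24.2% of all promoters. CCAAT was in all 3, against 37.4% of all promoters. Cyp51 had it once, at -29 to -25, and Sc5d once, on the opposite strand at -24 to -20. Msmo1 had it 3 times, at -160 to -156, -96 to -92 and -55 to -51, and the middle copy shares its last base with the match TCACTGCAC. GGGCGG was in all 3 as well, against 35.7%. That hexamer holds only G and C, and all 3 promoters were above the median in G and C content (values below). The share over all promoters is therefore not a matched background for it.

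Cyp51 and Sc5d shared another form. TCACCTCAG was at -88 to -80 of Cyp51 and TCACATCAG at -52 to -44 of Sc5d, both on the strand of the gene. The pattern TCACNTCAG, which was chosen after these sequences were seen, was in 1.07% of all promoters and not in that of Msmo1. The E-box CACGTG, a hexamer that SREBP proteins can also bind, was in the Sc5d promoter at -98 to -93 and in 7.15% of all promoters. A match is a description of letters, not a bound site. The 250 bases were rich in G and C, at 62.8% in Cyp51, 67.6% in Sc5d and 72% in Msmo1, where the median of all promoters was 52.4%.

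Reads were counted as distinct positions, with 1 read kept per 5′ end and strand. The ratio is the SREBP-2 count over the IgG count after 1 read was added to each, scaled by the distinct positions of each library, and its exact 95% interval comes from the shares of the counts. The SREBP-2 library held 2396147 distinct positions and the IgG file 7011345. The peaks were presumably called on these reads. All 5 member peaks had a lower bound above 1, as had 92.4% of the 1800 peaks. All 5 also had a lower bound above 2, as had 29.2% of the peaks, and nothing is read from either count because the genes were picked for such values.

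Msmo1 had the most SREBP-2 reads. Its peak, at 67212235 to 67212797 on chromosome 8 (563 bp), held 263 SREBP-2 and 51 IgG reads, or 109.8 and 7.27 per 1000000 positions of the library. The ratio was 14.9 (11.1 to 20.8). The read count ranked 1 of 1800 and the ratio 8.

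The Cyp51 peak, at 4104286 to 4105008 on chromosome 5, was the widest member at 723 bp, rank 101 in the list. It held 206 SREBP-2 and 59 IgG reads (85.97 and 8.41 per 1000000), a ratio of 10.1 (7.62 to 13.9). It ranked 3 by SREBP-2 reads but 31 by ratio, and its IgG count was also high, at rank 20 of 1800.

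The Sqle peak, at 59146231 to 59146790 on chromosome 15 (560 bp), held 136 SREBP-2 and 33 IgG reads (56.8 and 4.71 per 1000000), with a ratio of 11.8 (8.19 to 18.2). These were rank 6 by reads and rank 14 by ratio. The Sc5d promoter peak, at 42072206 to 42072636 on chromosome 9, was the narrowest of the promoter peaks at 431 bp. It held 107 and 27 reads (44.7 and 3.85 per 1000000), a ratio of 11.3 (7.54 to 18.4), rank 10 by reads and rank 22 by ratio. Per 100 bp of peak the order was Msmo1 (46.7 SREBP-2 reads), Cyp51 (28.5), Sc5d (24.8) and Sqle (24.3), against a median of 5.45 over all peaks.

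The Sc5d upstream peak was of another kind. It spanned 42087968 to 42088298 (331 bp), and 20 SREBP-2 reads stood there against 2 of IgG, or 8.35 and 0.285 per 1000000. Its SREBP-2 count was near the median of all peaks (21) and ranked 943. Its ratio of 20.5 ranked 4, but with a control of 2 reads the interval ran from 7.11 to 258. In the RefSeq order of genes it lies on the side of Tecta, the next protein-coding gene at higher coordinates, and as Sc5d is on the minus strand that side is upstream of Sc5d.

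**Figure D1:**
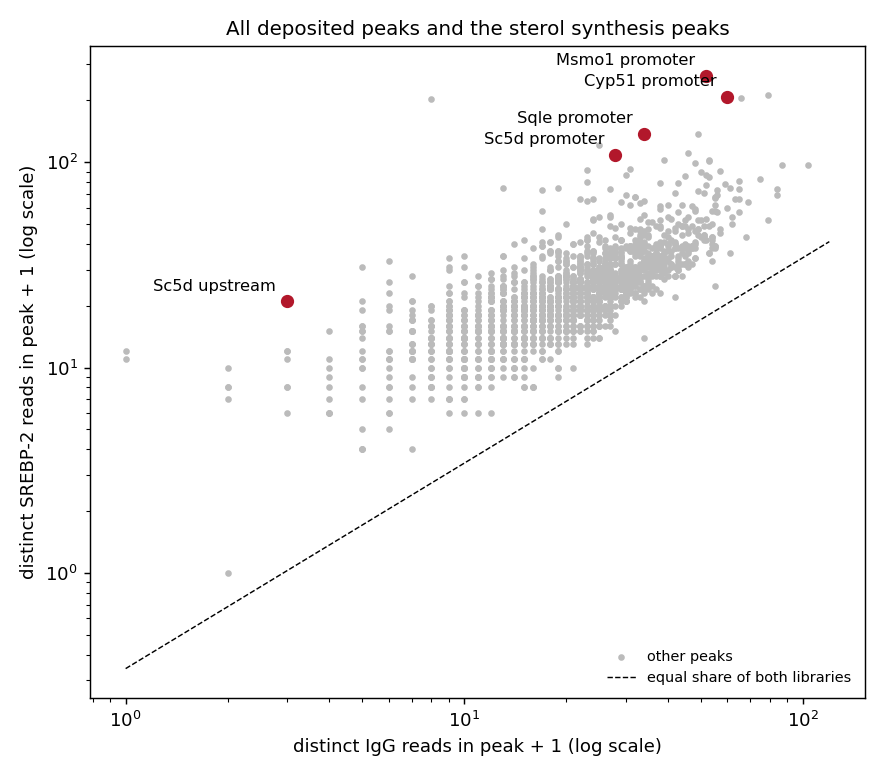
Distinct IgG reads (horizontal) and SREBP-2 reads (vertical) in each of the 1800 deposited peaks, both plus 1 and on log scales, with the 5 member peaks in red. The dashed line marks equal shares of both libraries; the 4 promoter peaks lie at the upper edge of the cloud, at 107 to 263 SREBP-2 reads, and the Sc5d upstream peak lies far to the left at 2 IgG reads.

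The 4 promoter peaks were set side by side by their counts. As the genes were picked for high counts and ratios in these libraries, the intervals show counting error and are not tests. Msmo1 had 2.46 times as many SREBP-2 reads as Sc5d (exact interval 1.96 to 3.11) and 1.93 times as many as Sqle (1.57 to 2.40). It had 1.28 times as many as Cyp51 (1.06 to 1.54). Cyp51 had 1.51 times as many as Sqle (1.21 to 1.90), and Sqle 1.27 times as many as Sc5d (0.979 to 1.65). IgG reads went partly the same way, with 1.89 times as many at Msmo1 as at Sc5d (1.16 to 3.13) and 2.19 times as many at Cyp51 as at Sc5d (1.36 to 3.58).

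The ratios of the 4 ran from 10.1 to 14.9, a closeness that the choice of genes partly fixes. Of the 6 pairs of promoter peaks, 6 had an interval of the odds ratio (SREBP-2 over IgG at one peak against the other) that spanned 1. The widest contrast was Msmo1 over Cyp51, at 1.48 (0.953 to 2.29). The narrowest was Sqle over Sc5d, at 1.04 (0.564 to 1.91). An interval that spans 1 does not show that the loci were equally enriched.

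The choice of control changed the size of every ratio. The IgG file holds reads of 36 and of 37 bases. The shorter ones made up 75.1% of its reads, with 5491477 distinct positions against 1527327 of 37 bases. Most control positions in the promoter peaks were also of 36 bases, with 48 of 36 bases and 5 of 37 bases at Msmo1. The counts were 54 and 6 at Cyp51, 30 and 3 at Sqle, and 25 and 2 at Sc5d. At each of these peaks the share of 36-base positions was higher than in the whole file, and the reason was not tested. Against the 36-base reads the promoter ratios were 8.63 (Cyp51), 9.52 (Sc5d), 10.1 (Sqle) and 12.3 (Msmo1). Against the 37-base reads they were higher, at 18.8, 22.9, 21.8 and 28.0 in the same order. Sc5d then stood above Sqle, but on only 2 control reads at Sc5d and 3 at Sqle. Their intervals overlapped widely, at 9.21 to 285 and 9.68 to 142, so nothing is read from that order. The Sc5d upstream peak moved the other way, from 24.1 against the 36-base reads to 4.46 (1.55 to 56.2) against the 37-base reads.

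**Figure D2:**
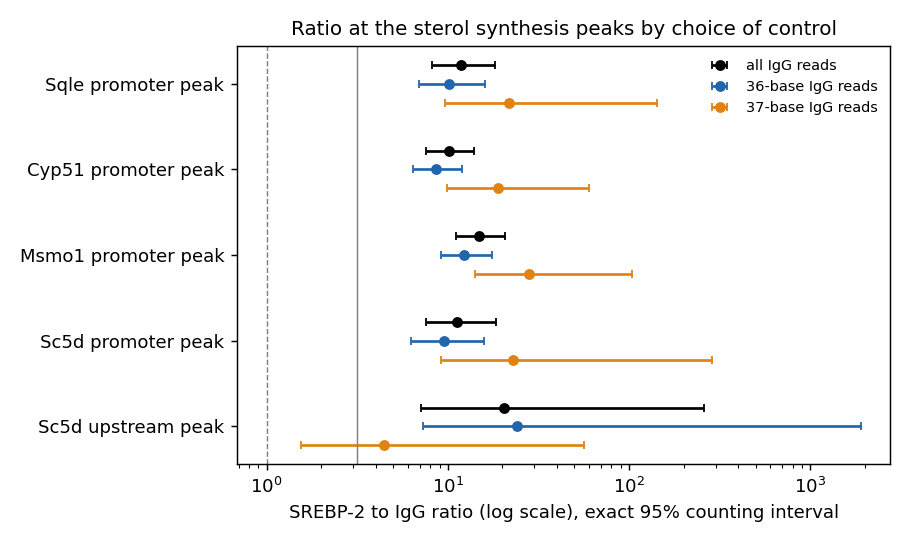
SREBP-2 to IgG ratio of each member peak on a log scale, with exact 95% counting intervals, against all IgG reads (black), the 36-base reads (blue) and the 37-base reads (orange). The dashed line is at 1 and the solid line at 3.15, the median over all peaks; the lower bounds lie above 3.15 in each case but the Sc5d upstream peak against the 37-base reads (1.55).

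The share of SREBP-2 reads near the peak midpoint differed between the genes. Reads were moved 100 bp downstream of their 5′ end to an assumed fragment centre, and counted within 1 kb of the peak midpoint. The median offset between plus-strand and minus-strand 5′ ends was 90 bp over 1012 peaks. A shift of 100 bp therefore tends to carry the strands past each other, and the shares below hold for this shift only. At Sc5d 76.6% of the SREBP-2 reads lay within 100 bp of the midpoint, and at Sqle 60.7%. At Msmo1 it was 49.6% and at Cyp51 only 33.8%, where the median of the 1678 peaks with at least 20 reads of each antibody was 38.7%. By this share the Sc5d promoter peak was at percentile 99.3 of those peaks and Cyp51 at percentile 37.6. Background reads within 1 kb lower the share, so a peak with few reads above background tends to score low whatever its width. The percentiles are therefore not a measure of compactness alone. The share of IgG reads within 100 bp was 15.1% to 22.7% at the promoter peaks, about the 19.3% median of all peaks.

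**Figure D3:**
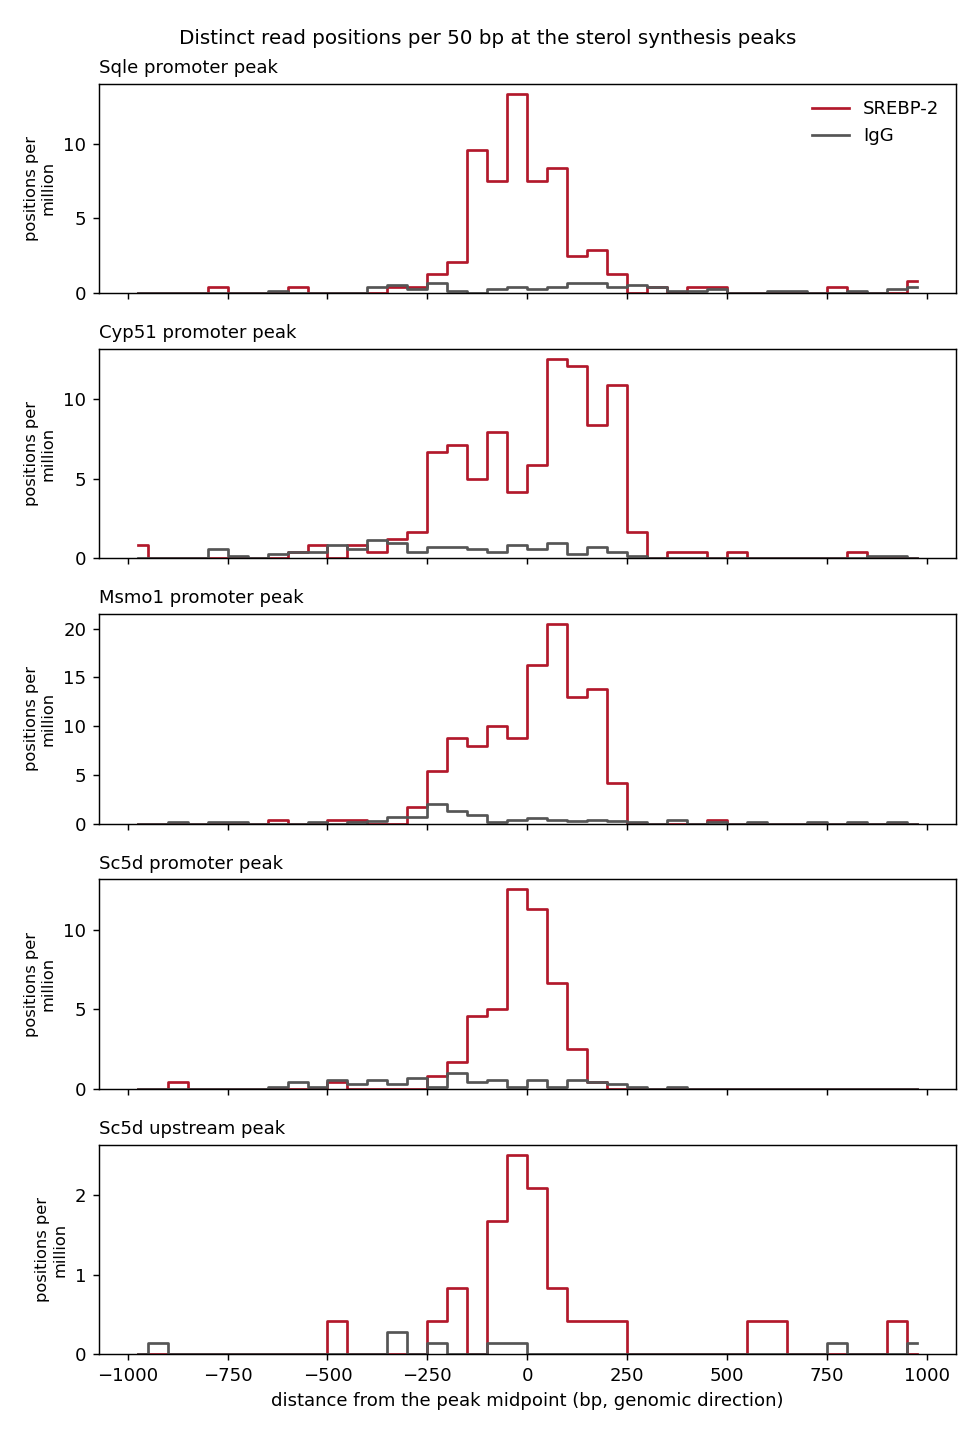
Distinct positions of each library (per 1000000) in steps of 50 bp, within 1000 bp of the midpoint of each member peak, for SREBP-2 (red) and IgG (grey); each panel has its own vertical scale. Sqle and Sc5d are highest in the step from -50 to 0 bp, and Sqle has a lower rise on each side of it. Cyp51 and Msmo1 are broader with a taller side at higher coordinates, and IgG is low and spread out at each.

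Cyp51 and Msmo1 each showed a pair of summits, on both strands. In ChIP-seq, plus-strand reads start to the left of a bound site and minus-strand reads to its right, so a site gives 1 maximum on each strand. The 5′ ends were smoothed per strand, and a summit was counted where a plus-strand maximum had a minus-strand maximum 50 to 150 bp downstream of it. At Cyp51 the plus strand had maxima at -203 and 108 bp from the midpoint and the minus strand at -119 and 191 bp. With the smoothing used here (Gaussian SD 30 bp) the strands gave nearly the same spacing, 311 and 310 bp. This closeness depended on the setting. With all deposited reads the spacing was 272 bp on the plus strand and 301 bp on the minus strand. With an SD of 20 bp it was 308 and 361 bp, from the first to the last of 4 pairs. At Msmo1 the maxima were at -185 and 26 bp on the plus strand and at -85 and 130 bp on the minus strand, a spacing of 211 and 215 bp. With all deposited reads the Msmo1 spacing was 204 and 214 bp.

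How many reads lay between the summits depended on how far reads were moved. For these counts each 5′ end was moved to the middle between the strand maxima, by 42 bp at Cyp51 and 51 bp at Msmo1, and windows of 100 bp were centred on the maxima of the same reads, so a lower middle is partly built in. At Cyp51 the lower-coordinate summit then held 51 SREBP-2 reads, the middle 26 and the higher-coordinate summit 69, with 8, 12 and 10 IgG reads. At Msmo1 the SREBP-2 counts were 57, 26 and 118, with 11, 4 and 6 IgG reads. With the shift of 100 bp used elsewhere, the SREBP-2 counts were 30, 23 and 50 at Cyp51 and 44, 54 and 84 at Msmo1, so that at Msmo1 the middle was no longer the lowest. The taller summit was at higher coordinates at both genes, and since both are on the minus strand that is the side farther upstream.

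Sqle and Sc5d had 1 summit each. It was at -54 bp at Sqle, from maxima at -107 and -1 bp, and at 24 bp at Sc5d, from -34 and 82 bp. The strand offset of these single summits, 106 and 116 bp, was close to that of the Msmo1 summits (100 and 104 bp) and above that of the Cyp51 summits (84 and 83 bp). Over the whole peak, the median minus-strand 5′ end lay 137 bp (Sqle), 126.5 bp (Sc5d), 98.5 bp (Msmo1) and 59.5 bp (Cyp51) downstream of the median plus-strand 5′ end, where the median over 1012 peaks was 90 bp. In the list 13 peaks held 100 or more SREBP-2 reads. Of these 3 had at least 2 summits and the pair of Cyp51 and Msmo1 made up 2 of those. The count of summits depended on the smoothing. With a Gaussian SD of 20 bp in place of 30 bp Sqle had 2 and Cyp51 4, and with a minimum height of 60% of the highest in place of 40% Msmo1 had 1. Whether a pair of summits stands for separate bound sites was not tested.

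**Figure D4:**
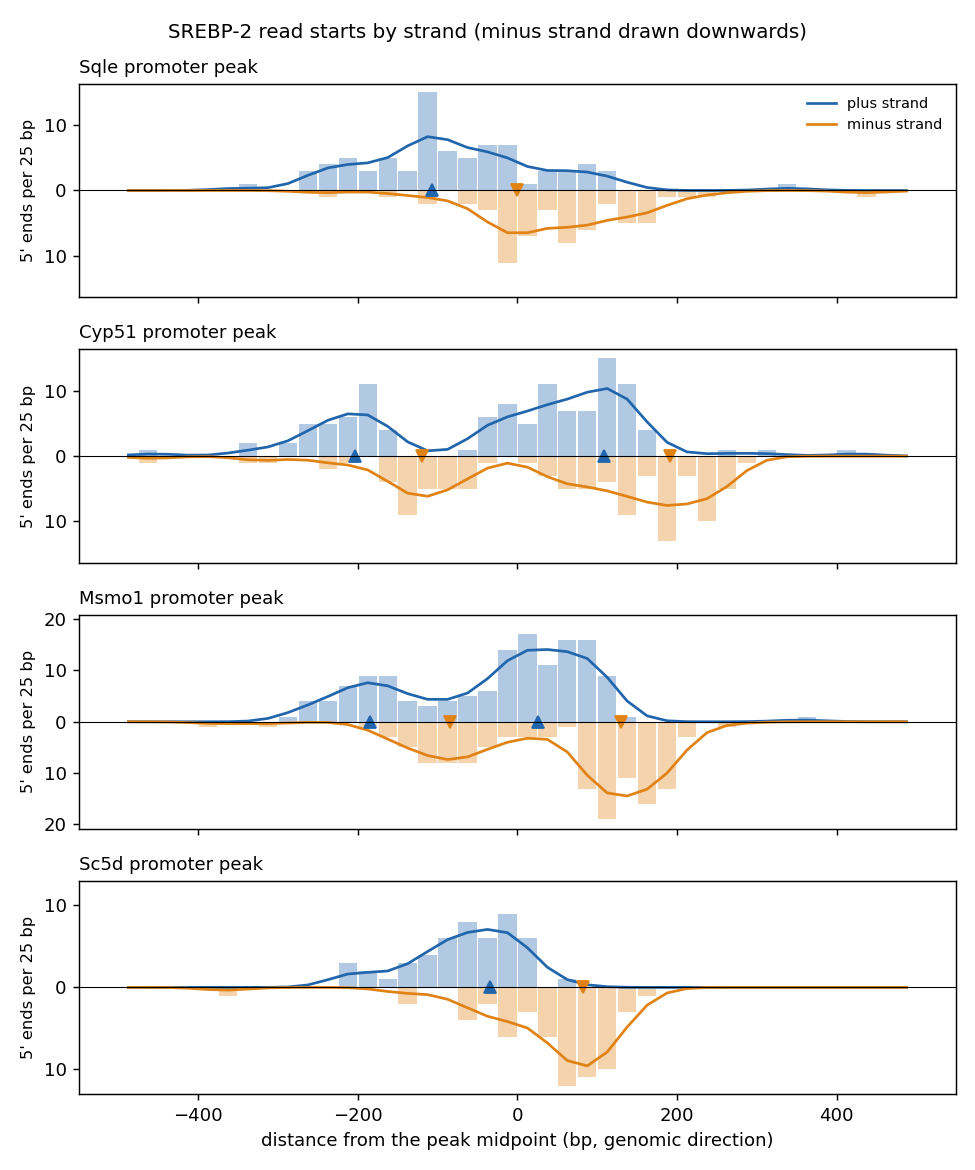
SREBP-2 5′ ends per 25 bp within 500 bp of the midpoint of the 4 promoter peaks, plus strand upwards (blue) and minus strand downwards (orange), with smoothed lines and triangles at the paired maxima. Cyp51 and Msmo1 have 2 pairs of triangles, 310.5 and 213 bp apart from centre to centre, and Sqle and Sc5d have 1.

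Both strands contributed at the promoter peaks, with a plus-strand share of 45.8% (Sc5d) to 57.4% (Sqle) and an exact interval that included 50% at each. The Sc5d upstream peak was uneven, with 16 plus-strand and 4 minus-strand reads (80%, 56.3% to 94.3%). It had no paired summit. It also had many copies of the same reads: its 20 positions stood for 74 deposited reads, or 3.7 per position, percentile 99.4 of the 1012 peaks that held 20 or more SREBP-2 reads. The copies were not particular to SREBP-2. Its 2 IgG positions stood for 8 deposited reads, or 4 per position, where the promoter peaks had 1.48 to 1.58.

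The promoter peaks carried 2.07 (Sc5d), 2.29 (Sqle), 2.62 (Msmo1) and 2.81 (Cyp51) deposited reads per SREBP-2 position, against a median of 1.92 over those 1012 peaks. Msmo1 stood for 688 reads and Cyp51 for 579, at percentiles 95.9 and 98.1. Keeping 1 read per position also limits how high a summit can count. In the fullest 50 bp of the Msmo1 peak, 46 of the 100 strand positions held a read, and at Cyp51 39, at Sqle 28 and at Sc5d 24. How many copies were separate fragments that started at the same base cannot be told from these files. With all deposited reads the ratios were 15.2 (Msmo1), 11.1 (Cyp51), 10.3 (Sqle) and 9.49 (Sc5d), so Cyp51 went from the lowest to the second place.

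The IgG reads were unevenly placed around the midpoints. The fuller side held 63.8% (Sqle) to 72.7% (Cyp51) of them at the promoter peaks, where the median of the 1678 peaks was 61.0% and the 90th percentile 75.7%. Within 1 kb of the midpoint, 72.7% of the 88 IgG reads at Cyp51 lay at lower coordinates (62.2% to 81.7%), where 41.2% of the SREBP-2 reads did (34.6% to 48.1%). At Msmo1 it was 68.5% of 73 IgG reads (56.6% to 78.9%) against 39.2% of SREBP-2 reads (33.3% to 45.3%). At Sc5d it was 70.4% of 54 IgG reads (56.4% to 82.0%) against 55.0% (45.2% to 64.4%), and there the intervals overlapped. In all 3 genes lower coordinates are the transcribed side. The median IgG position was 292.5 bp from the SREBP-2 median at Cyp51, 198 bp at Msmo1 and 163 bp at Sc5d, where the median distance over the 1678 peaks was 91 bp and the 90th percentile 235 bp, which Cyp51 alone of these passed.

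At Sqle the sides were the other way round in genomic coordinates, with 36.2% of 58 IgG reads at lower coordinates (24.0% to 49.9%) and 58.6% of the SREBP-2 reads (50.2% to 66.7%). The strand of Sqle was not determined here. Which of its sides is transcribed is therefore not stated, and Sqle cannot be called an exception to the other genes in that respect. The IgG median lay 133.5 bp to the right of that of SREBP-2. In the 50 bp with the most SREBP-2 reads (32 reads, from -50 to 0 bp) there were 3 IgG reads, and the fullest IgG steps held 5, at -250 to -200 and at 100 to 200 bp. At Msmo1 the step with 49 SREBP-2 reads held 3 IgG reads. At Cyp51 the step with 30 held 7.

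Along the 40 kb of each locus the SREBP-2 reads were concentrated in the peaks. The peaks held 78.0% of the locus' 264 SREBP-2 reads at Cyp51, 75.4% of 349 at Msmo1, 69.0% of 197 at Sqle and 59.6% of 213 at Sc5d. Of the IgG reads they held 26.2%, 18.1%, 12.9% and 10.3% in the same order. The Sc5d upstream peak accounted for 20 of the 127 SREBP-2 reads in the Sc5d peaks.

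Outside the peaks, and over 1 kb from their edges, SREBP-2 was not told apart from IgG at any of the 4 loci. The scaled ratio there was 0.785 (0.555 to 1.06) at Sqle, 0.966 (0.722 to 1.26) at Sc5d, 1.05 (0.725 to 1.45) at Cyp51 and 1.13 (0.855 to 1.46) at Msmo1. Both libraries were denser there than over the whole chromosomes. SREBP-2 had 1.26 to 2.11 reads per kb against 0.944 to 1.01 outside peaks on these chromosomes, and IgG had 3.57 to 6.16 against 2.91 to 3.10. The chromosome values divide by the whole span between the first and last read, with any stretches to which no read could be aligned. The reason for the difference was not tested. The window of 200 bp with the most SREBP-2 reads in these flanks was at 67199950 to 67200149, 12.55 kb below the Msmo1 position, with 6 SREBP-2 and 1 IgG reads. The fullest such windows of the other loci held 3 or 4 SREBP-2 reads.

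**Figure D5:**
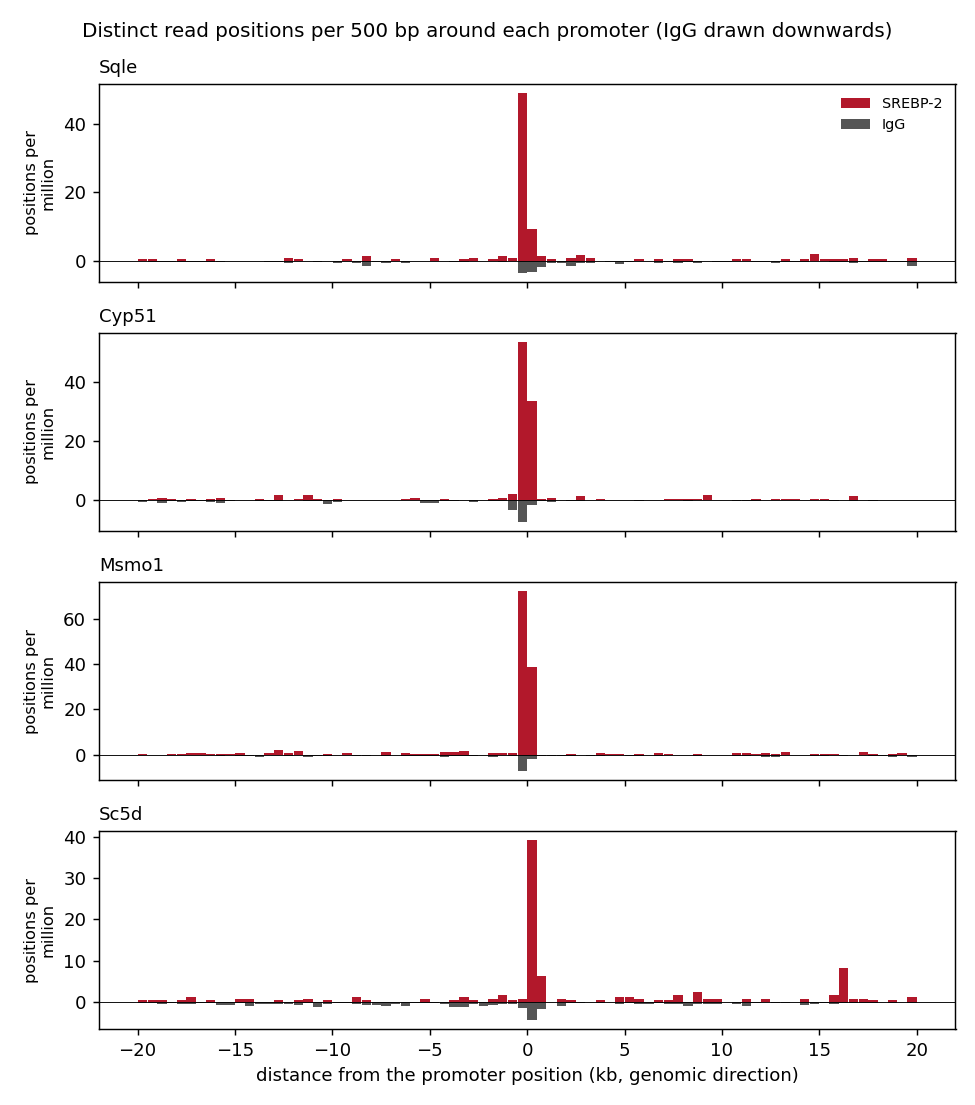
Distinct positions per 1000000 of the library in steps of 500 bp within 20 kb of each promoter position, SREBP-2 upwards (red) and IgG downwards (grey); each panel has its own vertical scale. The promoter peaks stand alone at Sqle, Cyp51 and Msmo1, and Sc5d has a second, smaller peak 16.1 kb away.

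Together the 5 peaks were 0.278% of the peaks in the list and 0.359% of their length. They held 732 of the 44465 SREBP-2 reads in peaks (1.65%) and 172 of the 38514 IgG reads (0.447%).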

How the data were processed

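For each sample the authors deposited the aligned reads (position and strand, identical reads kept), and for the series a list of SREBP-2 peak regions without scores. Which aligner, peak caller and build they used is not given in the sources used here, and the list may not be the whole of theirs. Per the labels' protocols, fragments of about 200 bp were sequenced on an Illumina Genome Analyzer. The SREBP-2 file holds 7312431 reads (3.05 per distinct position) and the IgG file 12762782 (1.82).

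Starts were read as 0-based and are printed 1-based. Positions were counted in peaks with Python 3.11.15, NumPy 2.4.6, SciPy 1.17.1 and pandas 2.3.3. Intervals are Clopper-Pearson or, for odds ratios, exact conditional intervals. Copies made by amplification are not independent molecules. Strand offsets used 5′ ends in the peak widened by 100 bp. Summits were maxima of a Gaussian-smoothed strand profile (SD 30 bp, at least 40% of the highest, within 500 bp of the midpoint). The counting and the summit search were tested on simulated data. The named items are the 4 genes, every peak the rule found, and the 5 other peaks nearest to the promoter peaks in log2 reads and log2 ratio, 1 of which is not reported here. Members, lists and alternatives were chosen with earlier results of these data known.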

Additional observations from a re-analysis of the deposited data

How the results depend on the processing

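No paired analysis was possible because each antibody has 1 sample. The 5 ratios were recomputed under 8 alternatives (all reads, no shift, a shift of 47 bp, either IgG read length, windows of 250 bp to each side, scaling outside the peaks, no read added). Of these 40 values 35 stayed within the interval of the reported ratio, and the lower bound was above 1 in 40. The values with no read added lie inside that interval by construction, so they could not move. Scaling outside the peaks changed all ratios by 1 small common factor (Sqle from 11.8 to 11.9). The 5 that moved were those against the 37-base IgG reads: 21.8 (Sqle), 18.8 (Cyp51), 28.0 (Msmo1), 22.9 (Sc5d promoter) and 4.46 (Sc5d upstream), from 2 to 6 control reads each; the cause was not tested. The Sc5d upstream ratio spanned 4.46 to 29.3. The count of 1663 peaks above IgG was 1491 to 1752 with the bound of 1 and 525 with a bound of 2, a stricter rule by construction. The number of member peaks was 4 within 10 kb and 5 within 50 kb. The SREBP motif, in 0 member promoters as an exact match, was in 2 with 1 mismatch. Chosen after seeing the data, TCACNTCAG was in 2 and CACGTG in 1, as were the settings of the summits and of the reads between them: with a smoothing SD of 20 bp Sqle had 2, Cyp51 4 and the Sc5d upstream peak 1 (also 1 with all reads), and Msmo1 had 1 at 60% of the highest. Depth limits the Sc5d upstream peak most, with 20 and 2 reads.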

Other observations

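The peaks most like the 4 promoter peaks in SREBP-2 reads and ratio are given by position, as no annotation of their build was used here. The nearest spanned 28397452 to 28398264 of chromosome 5. Its SREBP-2 count was 205 and its IgG count 65, a ratio of 9.13 (6.95 to 12.4), at a distance of 0.446 in log2 units from the median of the promoter peaks. Farther away were chromosome 5 at 125946123 to 125946548 (120 and 24 reads, ratio 14.2), chromosome 11 at 120685129 to 120686236 (211 and 78, ratio 7.85) and chromosome 14 at 67487565 to 67488126 (91 and 22, ratio 11.7). The members' own distances were 0.301 (Sqle), 0.356 (Cyp51), 0.646 (Sc5d promoter), 0.747 (Msmo1) and 3.17 (Sc5d upstream).

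Promoters of other genes of the pathway were searched for the same motifs in the RefSeq table. Of 15 further synthesis genes 11 matched by symbol, and of 4 genes of uptake and feedback 1 did (Insig1, which holds SREBP precursors in the membrane). The exact TCACNCCAC was in 1 of the 11, Hmgcs1, an enzyme of an early step of the pathway. CCAAT was in 11 of the 11 and in Insig1, against 37.4% of all promoters, and GGGCGG in 10 of 11 and in Insig1, against 35.7%. The G and C content of these promoters was not taken into account. TCACNTCAG was in 0 of the 11 and not in Insig1, and CACGTG was in 2 of the 11 (Dhcr7 and Hsd17b7) and in Insig1. A gene with several starts in the table was counted once if any of them held the motif. The percentages are shares of the 32851 single promoters, so the counts of genes and the percentages are not in the same unit.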
